A study of Mus musculus with 8 samples.

Results

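The Ikaros genes Ikzf1, Ikzf2 and Ikzf3, the Runx genes Runx1, Runx2 and Runx3, and Cbfb were examined on 8 whole-genome arrays from mouse pro-B cell lines. The members were all probes outside the controls whose annotated transcript maps to 1 of these 7 symbols, which gave 12 probes for 7 of the 20125 genes named on the array. Ikzf1, Ikzf2, Runx1, Runx2 and Runx3 each had a brighter and a dimmer probe, and Ikzf3 and Cbfb had a single probe.

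All groups were cell lines from fetal liver of mice that lack Ebf1, a transcription factor of the B lineage, grown with SCF, Flt3L and IL7. The pro-B(+) line keeps the ability to enter the T lineage and had been maintained on OP9 stroma, while the pro-B(-) line has lost it and had been maintained on TD7, a stromal line of the thymus. Pro-B(-)/Mock and pro-B(-)/LMO2 are pro-B(-) cells that carry a lentiviral vector with a rat CD2 reporter, without or with mouse Lmo2. Each group had 2 arrays, and the labels give neither the stroma of the transduced cells nor whether replicates were separate cultures, so p-values measure the spread between these arrays, which may be technical. Which arrays are Mock was taken from the sample titles, which name an empty vector, while the series' design text describes the same 2 arrays only as the line without T-lineage potential. The Mock and LMO2 arrays lay on a slide of their own, so that vector and slide cannot be told apart where Mock is set against pro-B(-).

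Ikaros factors are zinc finger proteins that bind DNA as dimers and, through chromatin remodelling and co-repressor complexes, set gene expression in lymphoid progenitors. Ikzf1 encodes Ikaros, Ikzf2 encodes Helios, which is best known from T cells, and Ikzf3 encodes Aiolos, which accumulates as B cells mature. Runx proteins share the Runt DNA-binding domain and need CBFbeta, the product of Cbfb, for stable binding. Runx1 is needed for blood stem cell formation and for early T and B cell development, Runx3 for CD8 T cells and natural killer cells, and Runx2 is best known as the master regulator of bone formation.

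The RefSeq promoter table, of build GRCm38.p6, held 8 windows for 5 of the 7 genes, each from 250 bases before to 50 bases after a transcript start, and none for Ikzf2 or Ikzf3. The RUNX motif TGTGGT was searched on both strands and lay in 3 of the 8 windows, 1 each of Runx1, Runx2 and Runx3, against 16.8% of all 32851 windows. In these 3 windows a pair of the motif, read as ACCACA on the strand shown, stood 2 bases apart. This pair, which was noticed in these windows and then counted, occurred on either strand in 7 of the 32851 windows (0.0213%). The stretches below are shown because all 3 Runx genes, which moved in different directions on the arrays, hold the same pair, with the motifs in capitals.
Runx1, chr16:92826025-92826054, minus strand: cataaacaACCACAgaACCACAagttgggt
Runx2, chr17:44814583-44814612, minus strand: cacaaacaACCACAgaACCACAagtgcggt
Runx3, chr4:135120503-135120532, plus strand: gtccctcaACCACAgaACCACAaggccagg
The pair began at position 29 in Runx1, 24 in Runx2 and -134 in Runx3, where the start base is 1 and the base before it is -1. The Runx2 window held a further single RUNX motif. The Ikaros motif TGGGAA, found in 25.6% of all windows, lay in the same Runx3 window, and neither the GATA motif AGATAA (11.2% of windows) nor the E-box CAGCTG (16.3%) was in any of the 8 windows. The motifs did not overlap each other, and a match is a description of the letters and not a measured site.

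Values below are log2 normalized signals, in which 0 is the 75th percentile of an array, and a difference of 1 is a 2-fold change. Each array had 56.5% to 61.2% of its probes well above background, no spot was saturated, and replicate arrays correlated at r = 0.9988 to 0.9991. Lmo2 itself was 1.53-fold higher in pro-B(-)/LMO2 than in pro-B(-)/Mock (adjusted p = 5.55e-05) and highest in pro-B(+). Ebf1 had a signal above background in every group, and since the place of its probe relative to the deletion is not given in the sources used here, it checks nothing about the knockout. Among 9 markers of pro-B or lymphoid progenitor cells, between 7 and 9 were above background in each group. Markers of other cells moved as well. The summed level of 9 myeloid markers was 51.3 to 51.7 in pro-B(+), 9.65 to 10.5 in pro-B(-), 10.54 to 10.98 in Mock and 25.7 to 27.0 in LMO2 (normalized signals on the linear scale, added up over the markers). That of 10 stromal markers was 20.2 to 20.6, 9.98 to 10.3, 16.4 to 16.6 and 17.5 to 18.5 in the same order, with Lum below background in all groups. That of 9 T or NK markers was 19.9 to 21.1, 20.9 to 22.4, 19.2 to 19.6 and 31.2 to 32.1, with Ncr1 below background in all groups. Such sums are set mostly by the brightest markers and do not show a shift of a whole list. From Mock to LMO2, the mean log2 signal of Mpo went from -0.41 to 3.97, and Csf1r, Lyz2 and Cd14 rose to lower levels. Itgam (2.44 and 2.41) and Elane (-2.29 and -2.31) stayed level, and S100a8 and S100a9 were below background. Lck, at 3.96 to 4.33 over the groups, was the brightest T or NK marker. Cd3g was at -2.72 in pro-B(+), -3.90 in LMO2 and below background in pro-B(-) and Mock. The part of such cells in the results below was not tested, and in these bulk samples fewer cells of a type and less RNA per cell cannot be told apart.

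**Figure D1:**
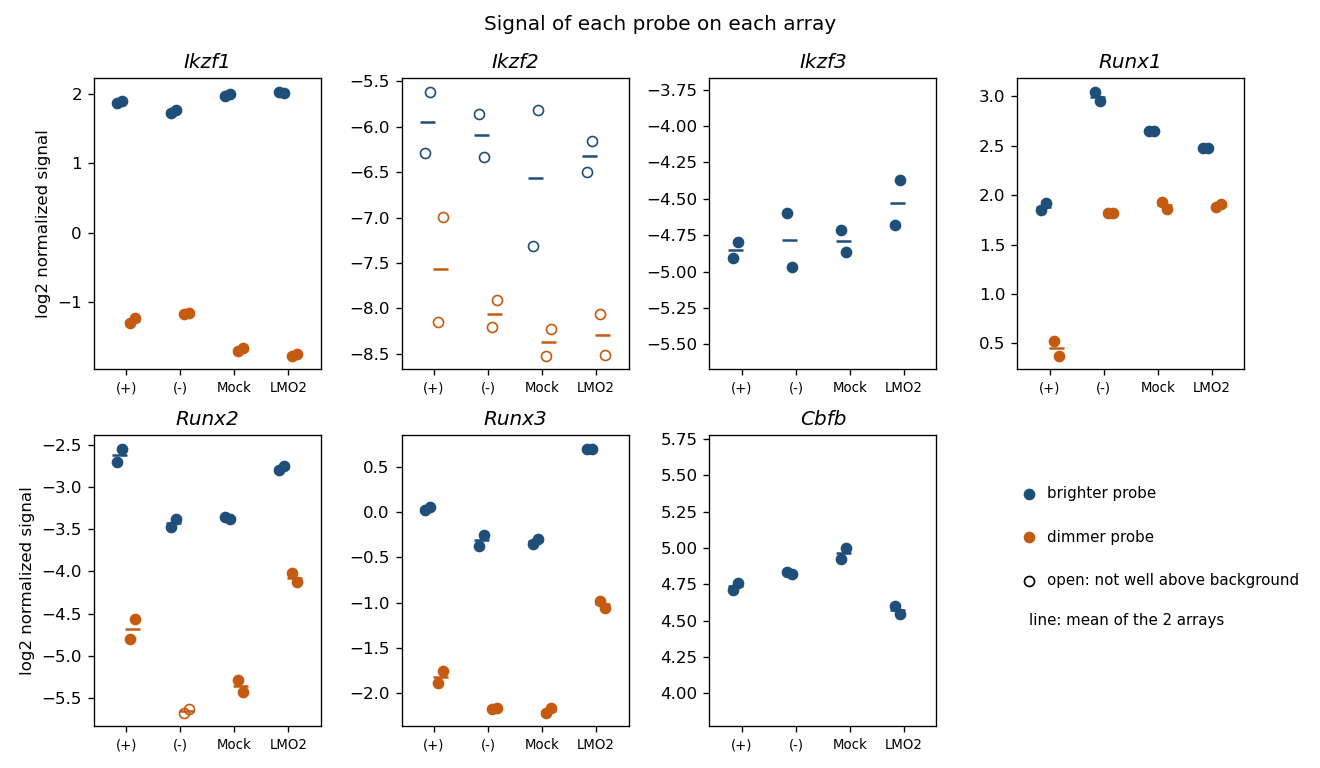
Log2 normalized signal of each member probe on each of the 8 arrays, with 1 panel per gene (each with its own scale), groups on the x axis and a line at the mean of the 2 arrays. Runx1 was lowest in pro-B(+) by both probes, Runx2 and Runx3 were raised in pro-B(+) and LMO2, and both Ikzf2 probes stayed below background on every array.

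In pro-B(+) cells, Runx1 fell and Runx2 and Runx3 rose relative to pro-B(-) cells. The fall of Runx1 was 2.16-fold by the brighter probe and 2.58-fold by the dimmer one, the rise of Runx2 was 1.75-fold by the brighter probe, and that of Runx3 was 1.28-fold by both probes, which was not called with median scaling of the arrays. Cbfb and Ikzf3 did not pass the test, and Ikzf1 moved by 0.14 on the log2 scale. By limma with Benjamini-Hochberg adjustment over all 23468 probes tested, 7 of the 10 member probes tested were called (5 higher, 2 lower), beside 48.6% of all probes (20.6% higher, 28.0% lower). Calls are thus common on these arrays, and the share of members called is read against that background. The dimmer Runx2 probe, among those called higher, was below background in pro-B(-). It was tested only through pro-B(+), so its direction was set by the filter. The 2 member probes not tested were those of Ikzf2, which stayed below background.

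The Lmo2 vector went with a rise of Runx3, of 2.03-fold and 2.26-fold by its 2 probes, and of Runx2, of 1.51-fold and 2.44-fold. Cbfb fell by 0.39 on the log2 scale. Runx1 changed by -0.17 by the brighter probe and by -0.0037 by the dimmer one, and the brighter probe gave -0.38 with median scaling. Of the 10 member probes tested, 6 were called in LMO2 against Mock (4 higher, 2 lower), beside 64.0% of all 22998 probes tested (28.0% higher, 36.0% lower). In Mock against pro-B(-), where the slide differs too, 5 of the 10 were called (3 higher, 2 lower), beside 58.1% of 23048 probes (27.9% higher, 30.2% lower). The dimmer Runx2 probe, counted there as higher, was likewise tested only through the Mock arrays.

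Array scaling bears on these small changes. Centring each array on its median in place of the 75th percentile moved the median change of all probes by -0.284 in pro-B(+) against pro-B(-) and by -0.21 in LMO2 against Mock. The share of calls that were higher then went from 42.4% to 15.8% in the first comparison and from 43.7% to 24.5% in the second. A change within an array relative to a paralogue, as given further on, does not depend on this choice.

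**Figure D2:**
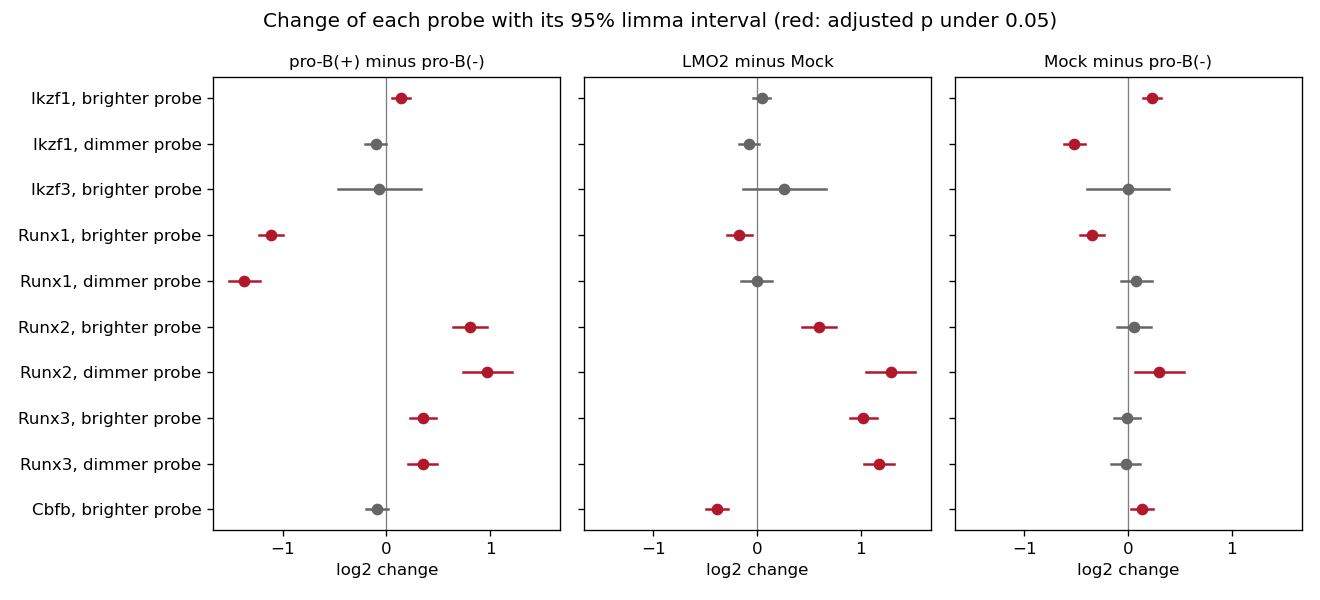
Log2 change of each member probe that was tested (x axis), with its 95% limma interval, in 3 comparisons; red marks an adjusted p under 0.05. Runx1 lies left of 0 and Runx2 and Runx3 lie right of 0 in pro-B(+) minus pro-B(-), while in LMO2 minus Mock only Runx2 and Runx3 lie right of 0 with intervals clear of it.

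Runx1 had log2 signals by its brighter probe (A_55_P2183438) of 1.85 and 1.92 in pro-B(+), 3.05 and 2.95 in pro-B(-), 2.65 and 2.65 in Mock, and 2.47 and 2.48 in LMO2. The dimmer probe (A_51_P206585) gave 0.53 and 0.37, 1.82 and 1.82, 1.93 and 1.86, and 1.88 and 1.90 in the same order. Both pro-B(+) arrays lay below all other arrays by either probe. The change in pro-B(+) against pro-B(-) was -1.11 (SE 0.0473, limma adjusted p = 2.22e-05) by the brighter probe and -1.37 (SE 0.0592, adjusted p = 2.36e-05) by the dimmer one, and their 95% intervals overlapped. For the other groups the probes disagreed. In Mock against pro-B(-) the brighter probe was 1.27-fold lower (adjusted p = 0.00205), whereas the dimmer probe changed by 0.078 (adjusted p = 0.298), with intervals that did not overlap. In LMO2 against Mock the brighter probe gave -0.17 (adjusted p = 0.0218) and the dimmer one -0.0037 (adjusted p = 0.962). That small call of the brighter probe was lost without any single array of the 2 groups: the adjusted p was 0.084 without Mock replicate 1, 0.0793 without Mock replicate 2, 0.0836 without LMO2 replicate 1 and 0.0759 without LMO2 replicate 2. It was larger with median scaling (-0.38, adjusted p = 0.000621) and smaller with quantile normalization (-0.084, adjusted p = 0.142).

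Runx2 was read at 146 and 148 units of processed intensity in pro-B(+), 73.0 and 73.8 in pro-B(-), 69.1 and 67.0 in Mock, and 86.8 and 95.1 in LMO2 by its brighter probe (A_52_P460545). On the log2 scale these were -2.70 and -2.54, -3.47 and -3.38, -3.35 and -3.38, and -2.80 and -2.74. The pro-B(+) and LMO2 arrays did not overlap with those of pro-B(-) or Mock, and Mock and pro-B(-) overlapped. The brighter probe changed by 0.81 (SE 0.065, adjusted p = 0.000272) in pro-B(+) against pro-B(-) and by 0.60 (SE 0.065, adjusted p = 0.00059) in LMO2 against Mock. Both changes were smaller but still called with median scaling, at 0.52 and 0.39, and with normexp background correction, at 0.52 and 0.38. The dimmer probe (A_52_P55876) did not clear background in pro-B(-), so that its rise in pro-B(+) was at least 1.96-fold (adjusted p = 0.000584). In LMO2 against Mock the dimmer probe changed by 1.29 (adjusted p = 0.000136), with an interval above that of the brighter probe. In Mock against pro-B(-) its rise was at least 1.23-fold (adjusted p = 0.0397, and 0.0595 when all probes entered the empirical Bayes step), and the brighter probe gave 0.057 (adjusted p = 0.48). In both comparisons with pro-B(-) the dimmer probe was tested only through the other group, so its direction there was set by the filter.

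Runx3 had log2 signals by its brighter probe (A_55_P2130895) of 0.023 and 0.060 in pro-B(+), -0.37 and -0.25 in pro-B(-), -0.35 and -0.29 in Mock, and 0.70 and 0.70 in LMO2. The dimmer probe (A_51_P494992) gave -1.89 and -1.75, -2.18 and -2.16, -2.22 and -2.17, and -0.99 and -1.06. LMO2 was highest by both probes, pro-B(+) came next, and pro-B(-) and Mock overlapped. The change in LMO2 against Mock was 1.02 (SE 0.0509, adjusted p = 3.65e-05) by the brighter probe and 1.17 (SE 0.0566, adjusted p = 3.3e-05) by the dimmer one. In pro-B(+) against pro-B(-) both gave 0.35 (adjusted p = 0.0029 and 0.00437), and with median scaling the brighter probe gave 0.067 (adjusted p = 0.265), so that this smaller rise depends on the scaling. The changes of the 2 Runx3 probes lay 0.00036 apart in pro-B(+) against pro-B(-), 0.15 apart in LMO2 against Mock and 0.013 apart in Mock against pro-B(-), with overlapping intervals each time.

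The difference between the parental change and the change with the Lmo2 vector was tested in the same fit. It was -0.94 for Runx1 (SE 0.0669, adjusted p = 0.000203) and -1.37 by the dimmer probe (adjusted p = 0.000123). For Runx3 it was -0.67 (adjusted p = 0.000829) and -0.82 (adjusted p = 0.000596), that is, Runx3 rose more with the Lmo2 vector. For Runx2 the probes gave 0.21 (adjusted p = 0.107, 95% interval -0.020 to 0.44) and -0.31 (adjusted p = 0.0995, interval -0.65 to 0.021), so a difference in either direction was not shown. The dimmer Runx2 probe was below background in pro-B(-), so -0.31 is a lower bound, and its p and interval do not allow for that. In all, 5 of 10 member probes were called in this test, beside 54.1% of all 24584 probes.

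Cbfb, the partner that all Runx proteins share, had log2 signals of 4.71 and 4.76 in pro-B(+), 4.84 and 4.82 in pro-B(-), 4.93 and 4.999 in Mock, and 4.60 and 4.55 in LMO2. The LMO2 arrays were the lowest and the Mock arrays the highest, with no overlap between any groups. The change in LMO2 against Mock was -0.39 (SE 0.0425, adjusted p = 0.000614), a fall of 1.31-fold, and it was -0.60 with median scaling and -0.17 (adjusted p = 0.0109) with quantile normalization. In pro-B(+) against pro-B(-) it was -0.093 (adjusted p = 0.124, 95% interval -0.20 to 0.013), and -0.38 (adjusted p = 0.000509) with median scaling. The rise in Mock against pro-B(-), of 0.13 (adjusted p = 0.0405), was lost when all probes entered the empirical Bayes step (adjusted p = 0.0823), under the replicate block (adjusted p = 0.0639) and without any 1 of 7 of the 8 arrays (adjusted p up to 0.181). Cbfb differed between the parental and the Lmo2 change by 0.29 (adjusted p = 0.00932), and by 0.16 (adjusted p = 0.0465) with quantile normalization.

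Ikzf1, the Ikaros gene itself, had log2 signals by its brighter probe (A_66_P124139) of 1.87 and 1.90 in pro-B(+), 1.73 and 1.76 in pro-B(-), 1.96 and 1.99 in Mock, and 2.03 and 2.01 in LMO2. The group means of this probe spanned 1.21-fold. The dimmer probe (A_55_P2023612) gave -1.30 and -1.22, -1.16 and -1.16, -1.70 and -1.66, and -1.77 and -1.74, a span of 1.51-fold in another order. The probes were called in opposite directions in Mock against pro-B(-), at 0.23 (SE 0.0335, adjusted p = 0.00257) and -0.52 (SE 0.0396, adjusted p = 0.000266), with intervals that did not overlap. In pro-B(+) against pro-B(-) they gave 0.14 (adjusted p = 0.0179) and -0.10 (adjusted p = 0.081). The call of the brighter probe there had an adjusted p of 0.0533 when all probes entered the empirical Bayes step, 0.0892 without pro-B(+) replicate 2 and 0.0768 without pro-B(-) replicate 1, and the probe turned to -0.14 (adjusted p = 0.0117) with median scaling. In LMO2 against Mock they gave 0.044 (adjusted p = 0.299) and -0.079 (adjusted p = 0.132), and the brighter probe gave -0.17 (adjusted p = 0.00736) with median scaling and 0.10 (adjusted p = 0.0382) with quantile normalization. No direction common to probes and scalings was therefore found for Ikzf1.

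Ikzf3 was dim but well above background on all 8 arrays, at 23.5 to 33.5 units of processed intensity. Its log2 signals were -4.91 and -4.80 in pro-B(+), -4.60 and -4.97 in pro-B(-), -4.71 and -4.87 in Mock, and -4.68 and -4.37 in LMO2, and all neighbouring groups overlapped. Its change was -0.067 (adjusted p = 0.752, 95% interval -0.46 to 0.33) in pro-B(+) against pro-B(-) and 0.26 (adjusted p = 0.202, interval -0.14 to 0.66) in LMO2 against Mock. Both Ikzf2 probes were not well above background on any of the 8 arrays, with processed intensities from 1.74 to 17.6, and no change is given for Ikzf2.

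The balance of the paralogues was taken as the log2 ratio of the brighter probes on each array, relative to its mean in pro-B(-), since levels of different probes cannot be compared directly. Runx1 against Runx2 stood at -1.88 and -1.96 in pro-B(+), 0.099 and -0.099 in pro-B(-), -0.41 and -0.39 in Mock, and -1.15 and -1.20 in LMO2. Runx1 against Runx3 stood at -1.48 and -1.45 in pro-B(+), 0.11 and -0.11 in pro-B(-), -0.31 and -0.37 in Mock, and -1.54 and -1.53 in LMO2. Both ratios were thus lower in pro-B(+) and LMO2 than in any array of pro-B(-) or Mock. In pro-B(+) against pro-B(-), Runx1 lost 3.78-fold to Runx2 and 2.76-fold to Runx3, and in LMO2 against Mock it lost 1.71-fold and 2.29-fold. In pro-B(+) the fall of Runx1 made up the larger part of the shift against Runx3 (-1.11 of -1.46), and in LMO2 the rise of Runx3 did (1.02 of the 1.20 by which the ratio dropped).

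By the brighter probes, Runx2 against Runx3 moved in opposite directions. It rose by 0.46 in pro-B(+) against pro-B(-) and fell by 0.43 in LMO2 against Mock, where the pro-B(+) arrays lay at 0.40 and 0.51 and the LMO2 arrays at -0.39 and -0.33. For each of these 3 pairs the exact permutation test, 2-sided over 2 arrays against 2, gave its smallest possible p of 0.333 (6 pairs of paralogues in 3 comparisons). No ratio can pass a threshold in this design. Even the change of 0.068 in Runx2 against Runx3 between Mock and pro-B(-) left the groups without overlap. How often other pairs of genes part the groups in this way was not counted. In LMO2 against Mock this ratio of Runx2 to Runx3 depended on the probe: its change was -0.16 with the mean of each gene's probes and 0.11 with the dimmer probes, an alternative added after the data were seen. The dimmer probes also turned Runx1 against Runx3 in Mock against pro-B(-), from -0.34 to 0.10, where the mean of the probes gave -0.12. The remaining 7 changes of Runx ratios kept their direction with either choice, where the dimmer Runx2 probe was below background in pro-B(-). The ratio of Ikzf1 to Ikzf3 changed by 0.21 in pro-B(+) against pro-B(-) and by -0.22 in LMO2 against Mock, and groups overlapped in each (exact permutation p = 0.667). Ratios with Ikzf2 rest on signals below background and are not given.

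**Figure D3:**
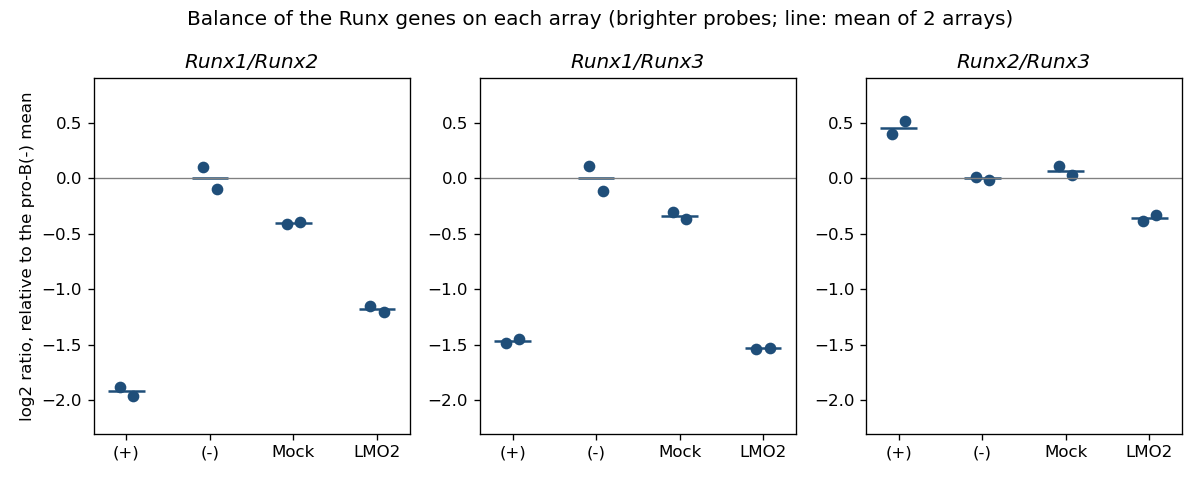
Within-array log2 ratio of the brighter Runx probes, as the difference from its mean in pro-B(-) (y axis), for the 4 groups with a point per array and a line at the mean. Runx1 lost ground to Runx2 and Runx3 in pro-B(+) and LMO2, whereas Runx2 against Runx3 was raised in pro-B(+) and, by these probes but not by the dimmer ones, lowered in LMO2.

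Genes with a pattern most like that of a member were named by Pearson's r over the 8 arrays among the 2699 genes that cleared background on each array and whose group means spanned 2-fold or more. The 8 arrays form 4 groups of near-identical replicates, so that such r are descriptions. Only the brighter probe of each member was used, and the dimmer Runx1 probe disagreed with it outside pro-B(+). The closest to Runx1 were Smco3 (r = 0.9935), Dnajb14 (r = 0.9896), which encodes a DnaJ co-chaperone, and Rapgef3 (r = 0.9879), which encodes the cyclic AMP sensor EPAC1. The closest to Runx3 were Gcnt1 (r = 0.9986), a glycosyltransferase that builds core 2 O-glycans, Cd96 (r = 0.9975), a receptor of T and NK cells, and Samd9l (r = 0.9966), an interferon-induced gene. Cd96 had mean log2 signals of -1.29 in pro-B(+), -2.52 in pro-B(-), -2.68 in Mock and 1.37 in LMO2.

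The remaining members of the Ikaros family, Ikzf4 and Ikzf5, were both called lower in pro-B(+), by 0.44 (adjusted p = 0.000356) and 0.28 (adjusted p = 0.0146) on the log2 scale. In LMO2 against Mock they parted, at 0.34 (adjusted p = 0.000706) for Ikzf4 and -0.59 (adjusted p = 5e-04) for Ikzf5. Both were higher in Mock than in pro-B(-), by 0.72 and 0.33, where the slide differs too. Of 15 co-repressor and remodelling partners of Ikaros, all tested, 9 were lower and none higher in pro-B(+), with a median change of -0.18 beside -0.014 over all genes. The count was 5 without pro-B(+) replicate 2 and 15 with median scaling. Over all 13219 genes tested in this comparison, 25.4% were higher and 26.7% lower. The largest fall was in Mta3, a subunit of the NuRD complex, at -0.67 (adjusted p = 0.000121), and Chd4, the remodelling ATPase of the same complex, gave -0.27 (adjusted p = 0.00822). No partner moved 2-fold in this comparison or in LMO2 against Mock. In LMO2 against Mock, 8 were lower and 1 higher (median -0.16 beside -0.035), beside 30.8% of 12927 genes higher and 37.4% lower. Here the histone deacetylase Hdac2 fell most, by 0.74 (adjusted p = 6.22e-05), and Gatad2b was the gene that rose. Hdac2 was already 2.07-fold lower in Mock than in pro-B(-) (adjusted p = 3.64e-05), where the slide differs too.

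Of 12 RUNX cofactors, 11 were named on the array and 10 tested. In pro-B(+) against pro-B(-), 2 were higher and 4 lower (median -0.10), beside 25.4% and 26.7% of all genes. With Lmo2, 4 were higher and 1 lower (median 0.13), beside 30.8% and 37.4%. Cbfa2t3, which encodes the co-repressor ETO2, rose 2.48-fold in LMO2 (1.31, adjusted p = 6.25e-06) and by 0.32 in pro-B(+) (adjusted p = 0.0014). Hipk2, a kinase that acts on RUNX complexes, changed by -0.72 in pro-B(+) (adjusted p = 0.000152) and by 0.82 in LMO2 (adjusted p = 7.09e-05). The difference between these effects was -1.53 for Hipk2 (adjusted p = 4.85e-05), which was already 0.56 higher in Mock than in pro-B(-) (adjusted p = 0.000465).

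Among 17 known RUNX target genes, 15 were named on the array and 14 tested in both comparisons. Gzmb and Ifng were tested only through the group in which they are high, so counts are given over the 12 genes above background on every array compared. Of these, 9 were higher and 2 lower in pro-B(+) against pro-B(-), with a median change of 0.61, beside 25.4% and 26.7% of all genes. The shares of all genes given here cover every gene tested, also those above background in a single group, which is a looser filter. With Lmo2, 6 were higher and 4 lower, with a median of 0.22, beside 30.8% and 37.4%. In Mock against pro-B(-), where the slide differs too, 3 of the 12 tested were higher and 4 lower, beside 30.3% and 29.3%. Mpo, the peroxidase of myeloid granules, rose 10.7-fold in pro-B(+) (adjusted p = 4.14e-07) and 20.9-fold in LMO2 (adjusted p = 3.89e-07). Csf1r, the M-CSF receptor, rose 21.8-fold in pro-B(+) and by 0.75 on the log2 scale in LMO2. Its mean log2 signals were 3.65 in pro-B(+), -0.79 in pro-B(-), -1.38 in Mock and -0.62 in LMO2. Cebpa, a myeloid transcription factor, rose 5.85-fold and 3.33-fold, and Itgal, which encodes the integrin chain CD11a, rose 2.66-fold and 4.55-fold.

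Of the lymphoid effector genes in this list, Ifng was below background in pro-B(-) and Mock. Its rise was at least 2.28-fold in pro-B(+) and at least 9.54-fold in LMO2. Gzmb, a cytotoxic protease, was likewise at least 4.67-fold and at least 1.95-fold higher. Since both genes were tested only through the group in which they are high, no p-value is given for them. Prf1, the gene for perforin, fell 2.01-fold in LMO2 against Mock (adjusted p = 0.000127). Its mean log2 signals were -2.94 in pro-B(+), -2.47 in pro-B(-), -1.67 in Mock and -2.68 in LMO2. Bcl11b, a T-lineage commitment factor, fell 8.54-fold in LMO2 (adjusted p = 4.99e-05) and by 0.76 in pro-B(+) (adjusted p = 0.0147). Spp1, a target known from bone, rose 2.02-fold in LMO2 against Mock, and was 1.78-fold higher in Mock than in pro-B(-). Csf1r, Mpo and Elane are also among the myeloid markers, and Cd4, Prf1 and Gzmb among the T or NK markers, whose summed levels are given above.

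Of 14 known Ikaros target genes, 11 were above background on every array of pro-B(+) and pro-B(-), and 2 of these were higher and 6 lower in pro-B(+) (median -0.64), beside 25.4% and 26.7% of all genes. The shares of all genes again follow the looser filter, which admits genes above background in a single group. On the LMO2 and Mock arrays 12 were above background throughout, and 5 were higher and 5 lower (median 0.043), beside 30.8% and 37.4%. In Mock against pro-B(-), where the slide differs too, 3 of the 13 tested were higher and 4 lower, beside 30.3% and 29.3%. Dntt, the terminal transferase of antigen receptor rearrangement, was 7.56-fold lower in pro-B(+) (adjusted p = 2.64e-06) and 16.2-fold higher in LMO2 (adjusted p = 1.44e-06). It was already 4.81-fold higher in Mock than in pro-B(-). The recombinase genes Rag1 and Rag2 changed by -2.78 and -2.11 on the log2 scale in LMO2 and by -0.77 and -0.74 in pro-B(+). In Mock against pro-B(-) they changed by -1.04 and -0.92. The surrogate light chain gene Vpreb1 was 2.44-fold lower in pro-B(+), and Igll1, below background there, was at least 1.44-fold lower. In LMO2, 1 of the 2 arrays cleared background for Igll1, with log2 signals of -5.64 and -6.22 against -4.51 and -4.73 in Mock, and no fold is given. Ctnnd1, which encodes p120 catenin, rose 3.56-fold in pro-B(+). The Notch target Hes1 was above background only on the LMO2 arrays, at least 2.23-fold above Mock. It was tested only through those arrays, so no p-value is given. Dtx1, another Notch target, rose 2.49-fold in LMO2. Of these targets, 6 are also pro-B or progenitor markers, namely Igll1, Vpreb1, Dntt, Rag1, Il7r and Flt3.

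**Figure D4:**
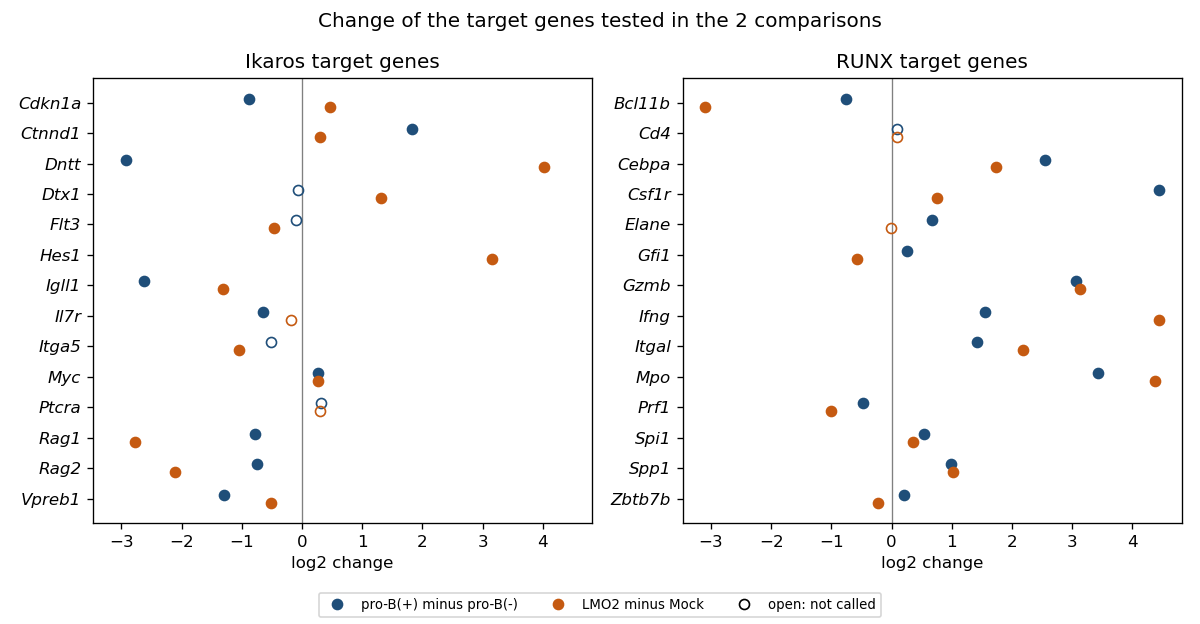
Log2 change (x axis) of each Ikaros target gene (left) and RUNX target gene (right) that was tested, in pro-B(+) minus pro-B(-) and in LMO2 minus Mock; open points were not called at an adjusted p of 0.05. Mpo, Cebpa and Itgal lie right of 0 in both comparisons, and Dntt lies at -2.92 in one and at 4.02 in the other. Gzmb and Ifng also lie right of 0, as does Hes1 in LMO2 minus Mock, but they were tested only through the group in which they are high. So was Igll1, which lies left of 0 in both comparisons. The points of these genes are drawn at measured signals, some of them below background.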

How the data were processed

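Total RNA of 8 samples was labelled with Cy3 and hybridised to single-colour Agilent arrays. The authors deposited the spot intensity from Feature Extraction 11.5.1.1, already background-subtracted, with flags per spot. The deposited log2 matrix, made by the authors with 75th percentile normalization in GeneSpring, served as an alternative. Control and outlier spots were left out, spots of a probe were averaged, and 39378 probes were analysed as log2 processed intensity minus the 75th percentile of the array. A transcript matched in a RefSeq gene table (GRCm38.p6, names only, since the design uses another build) named 26550 probes (67.4%). The brightest probe stood for a gene.

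limma 3.58.1 in R 4.3.3 fitted 4 group means over the 8 arrays, with 4 residual degrees of freedom. Tested were probes that cleared background on both arrays of a group compared, and calls needed a Benjamini-Hochberg adjusted p below 0.05. The empirical Bayes step used probes tested in any comparison. This form was settled last, after the members' results had been seen with all probes in that step and with the probes of the comparison alone, because it matches an earlier processing of the whole series. The other forms are given as alternatives. The scripts were tested on simulated data.

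A probe below background in a group has only a bound there: "at least" is the brighter group's mean over the mean, per array, of the probe's own signal or, if higher, the lowest signal flagged above background.

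The members, lists and tests were chosen with earlier results of these data known. Named were all members and, per list, up to 6 genes called at 2-fold or more in the parental or Lmo2 comparison by size of change. Ikzf4, Ikzf5, Mta3, Chd4, Hdac2, Gatad2b, Hipk2, Prf1, Spp1 and the smaller changes given beside a named gene fall outside that rule and were chosen after their values were seen. For genes most like a member, the 3 highest r were taken for members above background on all arrays whose group means span 2-fold.

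Alternatives were median scaling, quantile normalization, normexp (offset 50, on median spot signals, with local backgrounds above 100 replaced by the array median), the deposited matrix, 2 other filters, only the arrays compared, an intensity trend, the replicate number as a block, other uses of a gene's probes, and leaving out each array. Same-numbered replicates showed no shared deviation over probes (correlations from -0.027 to 0.052), and the main fit did not pair them. The labels do not say whether the numbers pair the arrays in another way.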

Additional observations from a re-analysis of the deposited data

How the results depend on the processing

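With 2 arrays per group, calls on small changes moved with the setting, while the parental changes of Runx1 and Runx2 and the Lmo2 changes of Runx2, Runx3 and Cbfb kept direction and call under every alternative run, though not always their size. Median scaling called 18513 probes in pro-B(+) against pro-B(-), in place of 11402. It also turned Ikzf1 to -0.14 there and to -0.17 in LMO2 against Mock, gave Runx3 0.067 and Cbfb -0.38 in the parental comparison, and turned Ikzf3 to 0.015 and Runx3 to 0.0083 in Mock against pro-B(-). It called all 15 Ikaros partners in the parental comparison and 1 of the other Ikaros genes in the difference of effects, where 2 were called otherwise, as did testing without a filter (1). With quantile normalization, LMO2 against Mock gave 0.10 for Ikzf1, now called, and -0.084 for Runx1, no longer called, and Ikzf3 turned to 0.066 in Mock against pro-B(-). With normexp, Ikzf3 turned to 0.044 there and the parental change of Cbfb, -0.14, was called.

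Without a filter, 0.14 for Ikzf1 in the parental comparison, -0.17 for Runx1 with Lmo2 and 0.13 for Cbfb in Mock against pro-B(-) were no longer called. The first and the last of these, 0.14 and 0.13, were also lost when only the arrays compared entered the fit (which called 1 other Ikaros gene in the parental comparison) and when all probes entered the empirical Bayes step, an alternative added after the data were seen. That step over the probes of 1 comparison, added likewise, changed no call of a brighter probe. The replicate block changed 1 call, that of Cbfb in Mock against pro-B(-) (0.13, adjusted p = 0.0639), and moved no count of calls past 1.5-fold.

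The mean of a gene's probes gave Ikzf1 0.019 in the parental comparison, turned it to -0.018 with Lmo2 and to -0.14 in Mock against pro-B(-), gave Runx1 -0.088 with Lmo2, and turned Runx2 to -0.052 in the difference of effects and the ratio of Ikzf1 to Ikzf3 to -0.14 in Mock against pro-B(-). The dimmer probe turned Ikzf1 to -0.10, -0.079, -0.52 and -0.023 in the 4 tests, Runx1 to 0.078 in Mock against pro-B(-) and Runx2 to -0.31 in the difference of effects. It gave -0.0037 for Runx1 with Lmo2. For Runx2 in Mock against pro-B(-) it gave 0.30, which was called but tested only through the Mock arrays. Both of these Runx2 values of the dimmer probe rest on pro-B(-) signals below background. The dimmer probes, an alternative added later for the ratios, turned the change of Runx1 against Runx3 to 0.10 in Mock against pro-B(-) and that of Runx2 against Runx3 to 0.11 with Lmo2.

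Leaving out each array in turn gave ranges of 0.12 to 0.16 for Ikzf1 and -0.25 to 0.12 for Ikzf3 in the parental comparison, and of -0.18 to -0.17 for Runx1 with Lmo2. In Mock against pro-B(-) they were -0.19 to 0.18 for Ikzf3, -0.071 to 0.051 for Runx3 and 0.096 to 0.17 for Cbfb, and in the difference of effects 0.13 to 0.29 for Runx2, called without pro-B(+) replicate 1 (adjusted p = 0.0412). The other Ikaros genes called ranged from 1 to 2 in the parental comparison and in the difference, and the Ikaros partners called in the parental comparison from 5 to 9. Where an array was left out, the lone array of its group was taken to vary like the other groups. The causes of these changes were not tested. No alternative was run for the changes and ratios of Ikzf2, which was below background on every array.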
